A study of Mus musculus with 4 samples.

Results

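Translation initiation factors load the initiator tRNA, the mRNA cap and the small ribosomal subunit into one complex, and their own mRNAs were examined here for binding by the RNA-binding protein IGF2BP3 in the mouse testis. The genes were chosen by name: all protein-coding genes of GENCODE M21 whose symbol begins with Eif and a digit. This gave 55 genes of 21951. Their spans held the centres of 1377 of 337234 read clusters on the same strand in replicate 1, and of 1025 of 216354 in replicate 2.

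The study used eCLIP-seq, in which UV light links proteins to RNA in the tissue, an antibody pulls down IGF2BP3 with its RNA (IP), and the RNA is sequenced beside an input kept from the same lysate without the antibody step. All samples came from testes of wild-type C57BL/6 males, 8 weeks old, with 1 IP library and 1 input library in each of 2 replicates. A pair of testes was used per preparation, with germ cells and somatic cells together. The series text speaks of an IgG control and of 3 biological replicates, while the labels give 2, each with IP and input alone. The study calls these 2 pairs of IP and input biological replicates, and the labels do not name the animals.

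In the usual route of initiation, the cap-binding protein eIF4E, the scaffold eIF4G and the helicase eIF4A gather on the capped end of the mRNA. A small ribosomal subunit that carries eIF1, eIF1A, eIF3, eIF5 and the initiator tRNA on eIF2 then scans to the start codon, where eIF5B helps the large subunit to join. Male germ cells depend on control of this step because many mRNAs are made early, stored, and translated only after transcription has stopped in spermatids.

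For each cluster, the authors' deposited table gives a log2(fold change), the ratio of IP to input reads after scaling to both libraries, and a −log10(P) of the same comparison. A cluster was called a significant peak when both were at least 2, the thresholds of the study's methods. The number of reads behind each cluster was worked out from these values. The read total behind these values, worked out in the same step, was larger for the input of replicate 2, at 16696122 against 8706391 in replicate 1. The significant peaks of the initiation factor genes held 7 or more IP reads in replicate 1 and 4 or more in replicate 2.

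Of the 55 genes, 52 had at least 1 cluster in both replicates. Eif4e3 had clusters in replicate 2 alone, and Eif4e1b and Eif3j2 had none in either. Among the clusters of these genes, 102 of 1377 in replicate 1 were significant peaks, or 7.41% (95% Wilson interval 6.14% to 8.91%), against 4.91% of all clusters in protein-coding genes. In replicate 2 there were 116 significant peaks of 1025, or 11.3% (9.52% to 13.4%), against 13.1%. The share lay above that of all genes in one replicate and not in the other, so it did not set the initiation factor genes apart. Among clusters with at least 10 recovered IP reads, it lay below that of all genes in both, at 19.5% against 24.5% and 18.4% against 27.1%.

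At the level of genes, 22 of the 52 had a significant peak in both replicates (42.3%), where 39.1% of all 12312 protein-coding genes with clusters in both did. Significant peaks with at least 1 base in common between the replicates were found in 11 of the 52 (21.2%, 95% Wilson interval 12.2% to 34.0%), against 16.6% of all such genes. Both shares were close to the background, and what follows therefore concerns which genes carried the peaks and where. Of the 52, another 3 genes had significant peaks in replicate 1 alone, 7 in replicate 2 alone, and 20 in neither.

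The peaks were unevenly spread over the genes. The 5 genes with most peaks held 54.9% of the 102 in replicate 1 and 47.4% of the 116 in replicate 2. They were picked by the same counts, and no such share over all protein-coding genes is given here. The clusters were uneven as well, as Eif4g3 alone held 291 of 1377 in replicate 1 and 202 of 1025 in replicate 2. Where clusters of both replicates overlapped in the initiation factor genes, their log2(fold change) values correlated with a Pearson's r of 0.701 across 733 pairs of clusters. In all protein-coding genes it was 0.639 across 93551 pairs. Clusters of one gene share their RNA and their library, so these pairs are not independent.

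**Figure D1:**
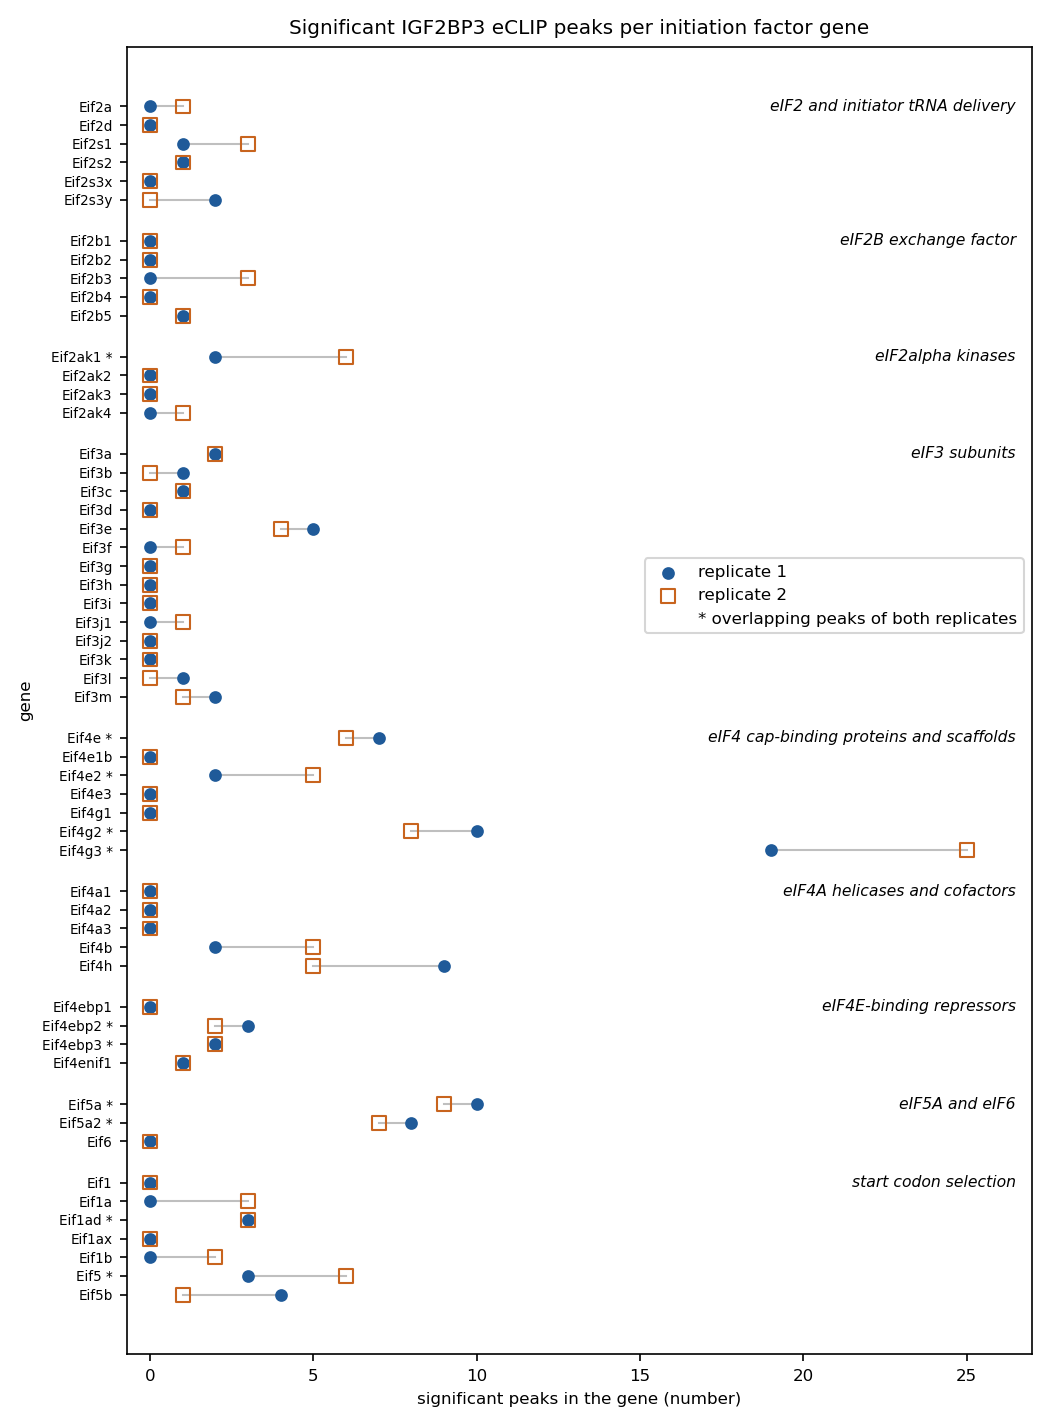
Number of significant peaks (horizontal axis) in each of the 55 initiation factor genes (vertical axis, grouped by role), with filled circles for replicate 1, open squares for replicate 2 and a star for genes whose peaks overlap between the replicates. Eif4g3 has the most, 19 in replicate 1 and 25 in replicate 2, while most eIF3 and eIF2B subunits have 0 to 2.

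The significant peaks of the initiation factor genes held a median of 16.5 IP reads in replicate 1 and 11 in replicate 2, beside 13 and 8 for all protein-coding genes. Of those with recovered read numbers, which leave out 1 peak of Eif5a in replicate 2, fewer than 10 IP reads lay behind 15.7% in replicate 1 and 44.3% in replicate 2, beside 29.0% and 61.9%. Their median log2(fold change) was 2.76 and 2.72, beside 2.84 and 3.07 for all genes. They thus rested on somewhat more reads than the typical peak at a similar or smaller ratio of IP to input.

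By the position of the peak centre, 44 of the 102 significant peaks of replicate 1 lay in 3′UTRs (43.1%), 35 in CDS (34.3%), 19 in introns (18.6%) and 4 in 5′UTRs. In replicate 2, 57 of the 116 lay in 3′UTRs (49.1%), 22 in CDS (19.0%), 35 in introns (30.2%) and 2 in 5′UTRs. The clusters of the same genes that were not significant were placed differently, with 9.18% in 3′UTRs and 43.6% in CDS in replicate 1, and 9.46% and 51.7% in replicate 2. For all protein-coding genes, 43.9% of the significant peaks in replicate 1 and 37.3% of those in replicate 2 lay in 3′UTRs. The 3′UTR share of the initiation factor genes was thus like that of all genes in replicate 1 and above it in replicate 2. Among significant peaks with at least 10 recovered IP reads, the shares in replicate 2 were closer, at 65.6% for the initiation factor genes and 59.9% for all genes. Of the other clusters of all protein-coding genes, 9.38% and 10.6% lay in 3′UTRs, so the contrast with significant peaks in 3′UTRs was a general one. CDS held 29.0% and 20.9% of the significant peaks of all genes and 27.1% and 36.7% of their other clusters, so the lower CDS share of significant peaks was seen over all genes in replicate 2 but not in replicate 1. Introns held 24.5% and 39.8% of the significant peaks of all genes.

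Intronic peaks rested on few reads. Of the 19 in replicate 1, 12 had fewer than 10 IP reads, and of the 35 in replicate 2, 32 did. Among exonic peaks these numbers were 4 of 83 and 19 of 81. When significant peaks that overlapped or touched were joined, the 11 genes with overlapping peaks held 26 shared sites, 16 in 3′UTRs, 8 in CDS, 1 in a 5′UTR and 1 in an intron. A shared site is used here for a stretch that holds overlapping significant peaks of both replicates. The read numbers of intronic peaks and the regions of shared sites are not given here for all protein-coding genes. These counts therefore do not set the initiation factor genes apart.

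The cap-binding proteins and scaffolds held 38 significant peaks in replicate 1, and replicate 2 had 44, from 465 and 350 clusters. These were 8.17% and 12.6% of the clusters, beside 4.91% and 13.1% over all protein-coding genes. Eif4e encodes the protein that binds the cap and limits how much eIF4F can form. It had 7 significant peaks in replicate 1, beside 6 in replicate 2. Its strongest shared site lay early in the long last exon, chr3:138555863-138555972 on the plus strand of mm10, 417 bases into a 3′UTR of 4192. There the log2(fold change) was 3.15 in replicate 1, from 42 IP and 8 input reads, and 4.21 in replicate 2, from 41 IP and 8 input reads. A second site 273 bases into the same 3′UTR had 2.93 in replicate 1 from 27 IP reads, and a lower 2.3 in replicate 2 from 15. Another lay in CDS, in exon 4 of 8, at 2.83 in replicate 1 and 2.03 in replicate 2 for the peaks that overlapped. Both replicates thus placed sites of this mRNA soon after its stop codon, at 6.51% and 9.95% of a long 3′UTR.

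The 3 relatives of Eif4e differed. Eif4e2, whose product binds the cap but does not take part in eIF4F and represses its targets, had 2 significant peaks in replicate 1, against 5 in replicate 2. Its shared site in the 3′UTR, chr1:87238120-87238216 on the plus strand, had log2(fold change) values of 2.98 and 4.15 for its peaks in replicate 1 and 2.26 for the single peak in replicate 2. That peak in replicate 2 held 8 IP reads, and Eif4e2 had no overlapping peaks once clusters with fewer than 10 IP reads were left out. Eif4e3, a more distant cap-binding protein, had 2 clusters in replicate 2, none of them significant, with up to 3 IP reads each, and both lay in a second protein-coding gene as well, so they cannot be given to Eif4e3 alone. Eif4e1b, a form typical of oocytes, had no cluster, which at this depth does not show that its mRNA is absent or unbound.

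The 3 genes of the eIF4G family showed a wide contrast between paralogs. Eif4g1, the standard scaffold that joins eIF4E, eIF4A and eIF3, had 53 clusters in replicate 1 and 48 in replicate 2, and 0 of them were significant. Its median log2(fold change) was 0.18 in replicate 1 and 0.09 in replicate 2. Among its clusters with a −log10(P) of at least 2, the highest log2(fold change) was 1.38 in replicate 1, from 26 IP and 17 input reads, and 1.49 in replicate 2, from 14 IP and 18 input reads. The reads of this mRNA were therefore sampled, with up to 44 input reads in a cluster in replicate 1 and 83 in replicate 2, but they were about as frequent in the IP as in the input.

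Eif4g2 (also called Dap5) encodes a shorter scaffold that lacks the eIF4E-binding region and serves initiation without the cap-binding protein. It had 10 significant peaks of 44 clusters in replicate 1 and 8 of 36 in replicate 2. The strongest site of all initiation factor genes in both replicates, by the smaller log2(fold change) of an overlapping pair of peaks, lay in its CDS at chr7:111074038-111074129 on the minus strand, in exon 20 of 22. Replicate 1 split it into 3 peaks, whose log2(fold change) ran from 3.79 to 4.08 on 58 to 114 IP reads and 6 to 14 input reads. Replicate 2 had 2 peaks, of 2.37 and 4.23, with 46 to 94 IP reads and 18 to 32 input reads. The highest −log10(P) there was 33.3 in replicate 1 and 55.8 in replicate 2. The peak with 4.08 in replicate 1 was only 6 bases wide, and all 6 lay inside the 44-base peak with 4.23 in replicate 2.

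A neighbouring site in the next exon of Eif4g2, chr7:111073896-111073950, had a log2(fold change) of 2.69 in replicate 1 and 2.87 in replicate 2, from 76 and 71 IP reads. A site in exon 9, chr7:111077639-111077715, reached 2.52 and 2.33, from 27 to 32 IP reads in replicate 1 and 28 to 35 in replicate 2. CDS held 8 of its 10 significant peaks in replicate 1 and 6 of 8 in replicate 2, with 2 in the 3′UTR in each. Eif4g2 thus differed from most initiation factor genes with shared sites in carrying them all in CDS, 2 near the end of the reading frame (at 91.6% and 93.7% of it) and the site of exon 9 at 28.5%.

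**Figure D2:**
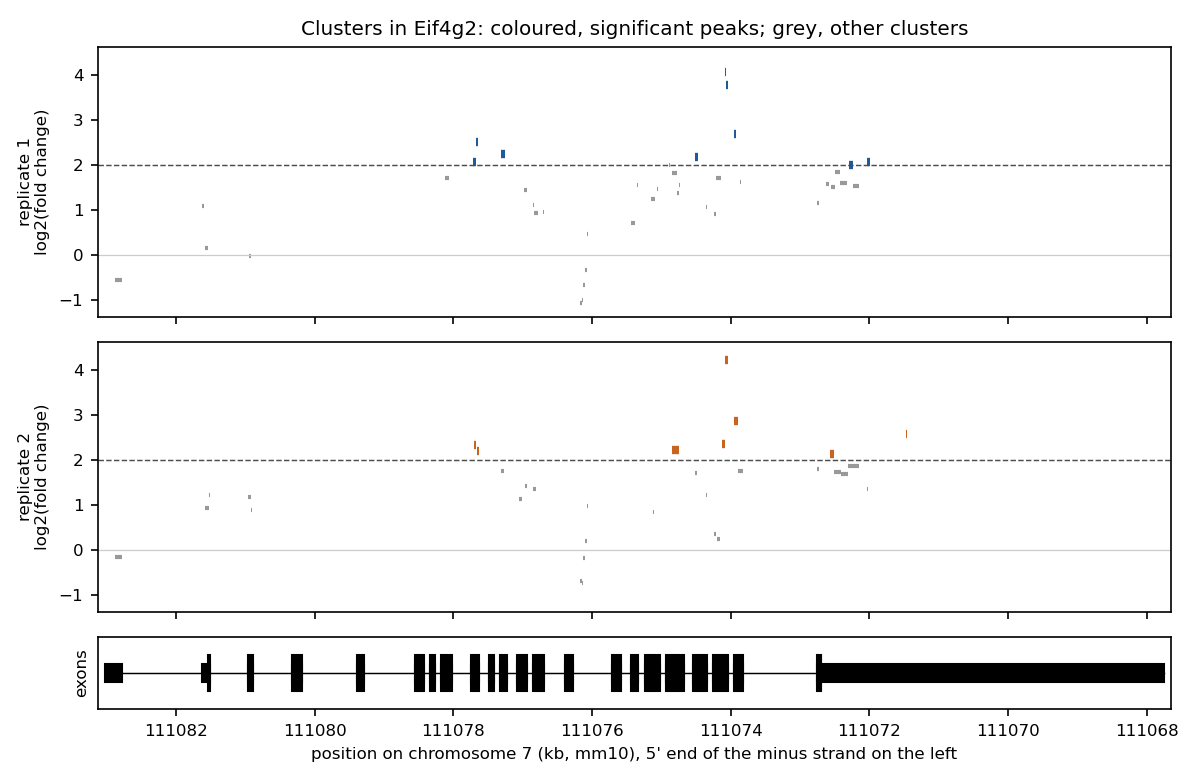
Clusters of Eif4g2 by position (horizontal axis, kb on chromosome 7, mm10, 5′ end on the left) and by the authors' log2(fold change) (vertical axis) in replicate 1 and replicate 2, with coloured bars for significant peaks, grey bars for other clusters, a dashed line at the threshold of 2, and the exons below (tall for CDS, low for UTR). The highest bars in both replicates, 4.08 and 4.23, stand over the same exon near the end of the CDS.

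Eif4g3, the other scaffold with an eIF4E-binding region and one that male meiosis is known to need, had 19 significant peaks of 291 clusters in replicate 1 and 25 of 202 in replicate 2. Its gene spans 215 kb, and introns held 8 of these peaks in replicate 1 and 16 in replicate 2. Per kb of exon, however, its significant exonic peaks came to 0.994 in replicate 1 and 0.814 in replicate 2, nearly the same density as in Eif4g2, at 0.984 and 0.787. It had 7 shared sites, more than any other initiation factor gene.

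The 4 shared sites of Eif4g3 in CDS were those with most reads. The one at chr4:138126000-138126123 on the plus strand, in exon 11 of 34, held up to 173 IP reads in replicate 1 and 160 in replicate 2, at a log2(fold change) of 2.18 to 3.07 and of 2.66. The one at chr4:138057949-138058078, in exon 4, held up to 113 and 93 IP reads, with 2.08 to 3.03 and 2.58. The one at chr4:138082892-138082988, in exon 5, held up to 84 and 63 IP reads, with 2.13 to 2.98 in replicate 1. These sites fell early in the reading frame, at 26.6%, 8.62% and 10.7% of its length. The last, chr4:138087531-138087568, belongs to an exon that the longest coding transcript skips, with 3.46 in replicate 1 from 65 IP reads and 2.50 in replicate 2 from 52.

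Of the remaining sites of Eif4g3, one lay in the 3′UTR of a short transcript that ends within the gene, chr4:138127091-138127157, at 4.46 in replicate 1 from 13 IP reads and 1 input read, and 2.85 in replicate 2 from 14 IP and 7 input reads. An input of 1 can stand for 0 or 1 reads, so the first ratio is loosely fixed. Another lay in the 3′UTR of the long transcripts at 2.35 and 2.38, and the intronic one had 8 IP reads in each replicate. These sites thus had far fewer reads than those in CDS.

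The eIF4A helicases unwind structure near the cap, and eIF4B and eIF4H assist them. Eif4a1, Eif4a2 and Eif4a3 had 13, 17 and 15 clusters in replicate 1 and 7, 16 and 8 in replicate 2, and 0 significant peaks in either. For the first 2 genes this says little of the mRNA, as most clusters had their centre in small RNAs within the gene, 9 of 13 and 5 of 7 for Eif4a1, and 16 of 17 and 15 of 16 for Eif4a2. The clusters of Eif4a2 with most reads lay in Snora81, a small nucleolar RNA in one of its introns, with up to 559 input reads in replicate 1 and 1320 in replicate 2. One of them had a −log10(P) of 24.6 in replicate 1 from 577 IP and 527 input reads, but a log2(fold change) of 0.89, so that the small P came with many reads rather than with a high ratio. Each replicate had 1 cluster of Eif4a2 outside these RNAs, with a log2(fold change) of 0.70 in replicate 1, from 21 IP and 22 input reads, and 1.58 in replicate 2, from 24 IP and 29 input reads. Both genes gained overlapping peaks at a log2(fold change) threshold of 1. In Eif4a2 these lay in a small RNA, and in Eif4a1 in the 3′UTR, at 1.18 in replicate 1 from 28 IP and 21 input reads, and 1.55 in replicate 2 from 43 IP and 53 input reads.

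The cofactors of the helicase carried significant peaks. Eif4h had 9 significant peaks in replicate 1, and replicate 2 had 5. Eif4b had 2 and 5. In Eif4h, 4 of the 9 lay in the 3′UTR in replicate 1, with a highest log2(fold change) of 4.67 from 15 IP reads and 1 input read, and the 5 in replicate 2 included 1 in the 3′UTR, at 2.96. In Eif4b, the 3′UTR peaks reached 2.85 in replicate 1 and 3.02 in replicate 2. In neither gene did a significant peak of one replicate overlap one of the other. Eif4h gained overlapping peaks at a threshold of 1, where a 3′UTR peak of replicate 1 at 2.04 met a cluster of replicate 2 at 1.75 from 28 IP reads.

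Small proteins that bind eIF4E and keep it from eIF4G were the next group. Eif4ebp2 had 3 significant peaks in replicate 1, beside 2 in replicate 2, all in the 3′UTR. Its shared site at chr10:61432797-61432852 on the minus strand had a log2(fold change) of 3.20 in replicate 1, from 27 IP and 5 input reads, and 2.91 in replicate 2, from 25 IP and 12 input reads. The strongest peak of replicate 2, chr10:61433238-61433290 at 3.60, met no significant peak of replicate 1, which had its other peaks on both sides of it. Eif4ebp1, the best known of these repressors, had 1 cluster in replicate 1 and 4 in replicate 2, with up to 7 IP reads and 0 significant peaks, so little of its mRNA was sampled.

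Eif4ebp3 had 2 significant peaks in each replicate, and both pairs overlapped in its short 3′UTR of 298 bases. The values were 2.67 in replicate 1, from 15 IP and 4 input reads, and 4.10 in replicate 2, from 19 IP and 4 input reads, for the stronger site. Another protein-coding gene of the annotation runs over the same bases on the same strand, so the peaks cannot be given to Eif4ebp3 alone, and the gene dropped out when clusters within a second gene were left out. Eif4enif1 encodes the transporter that carries eIF4E into the nucleus and to processing bodies. It had 1 significant peak in each replicate, in CDS at 2.50 in replicate 1 and in the 3′UTR from 9 IP reads in replicate 2, without overlap.

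eIF2 brings the initiator tRNA, and its 3 subunits are encoded by Eif2s1, Eif2s2 and Eif2s3x, with Eif2s3y as a copy on the Y chromosome that spermatogonia need. Eif2s1 had 1 significant peak in replicate 1, against 3 in replicate 2. Its 3′UTR peaks chr12:78885059-78885152 in replicate 1 (2.22, 11 IP reads) and chr12:78885177-78885262 in replicate 2 (2.49, 14 IP reads) lay next to each other without a base in common. Eif2s2 had 1 significant peak in each replicate, in CDS at 2.50 in replicate 1 and in the 3′UTR at 3.14 in replicate 2, the latter from 22 IP and 9 input reads. Neither subunit thus had a site that both replicates called.

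Eif2s3x had 5 clusters in replicate 1 and 1 in replicate 2, with up to 3 IP reads each and 0 significant. Eif2s3y had 13 and 12 clusters, of which 2 adjoining intronic peaks were significant in replicate 1, at 3.57 from 7 IP reads and 1 input read each, and 0 in replicate 2. Eif2a and Eif2d, which deliver tRNA by other routes, had 12 and 14 clusters in replicate 1 and 4 and 7 in replicate 2. The only significant peak among them was one of Eif2a in replicate 2, with 5 IP reads.

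eIF2B reloads eIF2 with GTP, and its 5 subunits had 51 clusters in replicate 1 and 53 in replicate 2. Eif2b5, the catalytic subunit, had 1 significant peak in CDS in each replicate, at 2.67 from 15 IP reads and 2.33 from 7 IP reads, without overlap. The peak of replicate 1 overlapped a cluster of replicate 2 at 1.99 from 11 IP reads, just under the threshold, and the gene gained overlapping peaks at a threshold of 1. Eif2b3 had 3 significant peaks in replicate 2, all intronic with 4 or 5 IP reads, and 0 in replicate 1. Eif2b1, Eif2b2 and Eif2b4 had 0 in either replicate.

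The 4 kinases that phosphorylate eIF2 under stress, and so slow initiation, differed in coverage. Eif2ak1, the kinase that responds to a lack of heme, had 2 significant peaks in replicate 1, and replicate 2 had 6. Its shared 3′UTR site at chr5:143902272-143902357 on the plus strand was weak, with 2.03 in replicate 1 from 12 IP and 5 input reads, and 2.48 in replicate 2 from 17 IP and 11 input reads. It was the one gene of the 11 that lost its overlap under the Benjamini-Hochberg adjustment of the P values. A stronger peak of replicate 2, chr5:143902515-143902676 at 2.64 from 33 IP reads, lay over a cluster of replicate 1 with 32 IP reads at 1.86, just short of the threshold. Eif2ak4, the sensor of amino acid shortage, had 1 intronic peak with 5 IP reads in replicate 2. Eif2ak2 and Eif2ak3 had 18 and 7 clusters in replicate 1, 8 and 2 in replicate 2, and 0 significant peaks.

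eIF3 is the largest factor and bridges the ribosome and eIF4G. Its 14 genes had 315 clusters in replicate 1 and 238 in replicate 2, of which 12 and 10 were significant, or 3.81% and 4.20%, and in 0 genes did peaks of both replicates overlap, where 16.6% of all protein-coding genes with clusters in both had such peaks. The share of clusters was close to the 4.91% of all protein-coding genes in replicate 1 and below their 13.1% in replicate 2. CDS held 11 of the 12 significant peaks in replicate 1 and 6 of the 10 in replicate 2. The eIF3 mRNAs were thus covered by many clusters at a median log2(fold change) of 0.76 and 0.85, and few of those stood out from the input.

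Within eIF3, Eif3e led, with 5 significant peaks in replicate 1, against 4 in replicate 2, and CDS held each of them. Those of replicate 1 lay between chr15:43261072-43261171 and chr15:43266149-43266263, with log2(fold change) values up to 3.57 and 14 to 22 IP reads. Those of replicate 2 lay on either side, 3 towards the 3′ end and 1 near the 5′ end, with values up to 3.26 and 6 to 21 IP reads. No significant peaks overlapped. For 4 of the 5 in replicate 1, a cluster of replicate 2 over the same bases had values of 1.40 to 1.93. The −log10(P) was above 2 for each, and adjoining peaks of replicate 1 shared a cluster of replicate 2. Of the 4 peaks in replicate 2, 1 met such a cluster of replicate 1, at 1.55. The highest of replicate 2, at 3.26, met a cluster at 0.76. Eif3e gained overlapping peaks at a threshold of 1. Eif3a had 2 significant CDS peaks in each replicate, at up to 2.76 and 2.43, without overlap. Eif3m had 2 in CDS in replicate 1 at up to 2.76 and 1 in the 3′UTR in replicate 2 at 3.85, and Eif3c had 1 in each, in CDS at 2.41 and in an intron at 2.85.

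Single significant peaks in 1 replicate were found in Eif3b and Eif3l (replicate 1) and in Eif3f and Eif3j1 (replicate 2), with 4 to 13 IP reads each. Eif3d and Eif3h had 19 and 26 clusters in replicate 1 and 14 and 12 in replicate 2, among the highest numbers without a significant peak. Eif3g, Eif3i and Eif3k had 9 to 16 clusters in each replicate, also without one. Eif3j2, a single-exon copy of the subunit gene Eif3j1, had no cluster.

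The factors that select the start codon were counted together with Eif1ad and Eif5b. This group gave 10 significant peaks in replicate 1, beside 15 in replicate 2, of which Eif1ad held 3 in each. They were 6.02% and 14.2% of the clusters of the group, close to the 4.91% and 13.1% of all protein-coding genes. Eif1 and Eif1b encode nearly the same protein, which keeps the scanning ribosome open. Eif1 had 10 clusters in replicate 1 and 9 in replicate 2, and 0 were significant, with the highest log2(fold change) at 1.87 and 1.95, just under the threshold. Eif1b had 0 significant peaks in replicate 1, where its highest ratio at a −log10(P) of at least 2 was 1.84 from 40 IP reads, and 2 in the 3′UTR in replicate 2, at 2.02 and 2.74 from 27 and 26 IP reads. Both genes gained overlapping peaks when the threshold on the log2(fold change) was lowered to 1, where 19 initiation factor genes had them. The share of all protein-coding genes with overlapping peaks at that threshold is not given here.

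Eif1ad, which carries an eIF1A-like domain, had the next highest site after that of Eif4g2 by the same measure, in its 3′UTR at chr19:5371009-5371100 on the plus strand. The log2(fold change) was 4.35 in replicate 1, from 12 IP reads and 1 input read, and 3.58 in replicate 2, from 10 IP and 3 input reads. High ratios here came from few reads. Eif1a had 0 significant peaks in replicate 1, against 3 in replicate 2 with 4 to 8 IP reads, and Eif1ax had 16 and 15 clusters with 0 significant.

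Eif5 encodes the factor that makes eIF2 hydrolyse GTP at the start codon. It had 3 significant peaks in replicate 1, and replicate 2 had 6, all in the 3′UTR. The 1 shared site was chr12:111545884-111545926 on the plus strand, at 3.57 from 21 IP and 3 input reads and 2.85 from 14 IP and 7 input reads. Its clusters with most reads, up to 335 IP and 517 input reads in replicate 1, lay in the small nucleolar RNA Snora28 and were not significant. Eif5b, the factor for subunit joining, had 4 significant peaks in replicate 1, beside 1 in replicate 2, all intronic and without overlap, with 4 to 13 IP reads.

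eIF5A helps ribosomes through difficult stretches and was first named as an initiation factor, while eIF6 keeps large subunits from joining too early. In this group, 18 of 43 clusters in replicate 1 and 16 of 37 in replicate 2 were significant. These were 41.9% and 43.2%, the highest shares of the 9 role groups, beside 4.91% and 13.1% over all protein-coding genes. Among clusters with at least 10 recovered IP reads, the share over all protein-coding genes was higher, at 24.5% and 27.1%. The share of this group at that read number is not given here. All significant peaks of the group belonged to Eif5a and Eif5a2, and Eif6 had 6 and 5 clusters with 0 significant. A single stretch of the Eif5a 3′UTR, split into several clusters, gave 6 of the peaks in replicate 1 and 8 in replicate 2. Both Eif5a paralogs thus carried peaks in either replicate.

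Eif5a had 10 significant peaks in replicate 1, against 9 in replicate 2. With adjoining peaks counted separately, it had 4.21 and 3.79 exonic peaks per kb of exon, the highest density in both replicates by this count. Its 3′UTR site chr11:69916825-69917152 on the minus strand covered 328 bases. It joined 6 peaks of replicate 1, whose log2(fold change) ran from 2.13 to 2.90 on 88 to 140 IP reads, and 8 of replicate 2, which ran from 2.02 to 3.32 on 84 or more IP reads. One of the 8 was listed at a −log10(P) of 400, the value given where P was too small to be computed, which was reached beyond about 88 in these tables. At its fold change, this takes at least 192 IP and 69 input reads. The ratio was thus moderate and the read number high over much of a 3′UTR of 633 bases.

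A second site of Eif5a lay in the 5′UTR, the only one of the 26 there, at chr11:69920342-69920505. It had values from 2.11 to 2.59 with 32 to 89 IP reads in replicate 1, and 2.29 with 42 IP and 31 input reads in replicate 2. Eif5a2, the paralog with a narrower expression, had 8 significant peaks in replicate 1, and replicate 2 had 7, all in its 3′UTR of 4391 bases. They formed 4 shared sites. The first, chr3:28795565-28795634 on the plus strand, had 3.76 in replicate 1 from 16 IP and 2 input reads, and 3.21 in replicate 2 from 18 IP and 7 input reads. The others reached 3.82 and 2.33, 3.22 and 2.58, and 2.46 and 3.17. These are the values of the peaks that overlapped, and the last site also held a peak of replicate 2 at 3.96 that touched no peak of replicate 1. The 4 sites lay between 26.1% and 52.2% of the way along the 3′UTR.

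**Figure D3:**
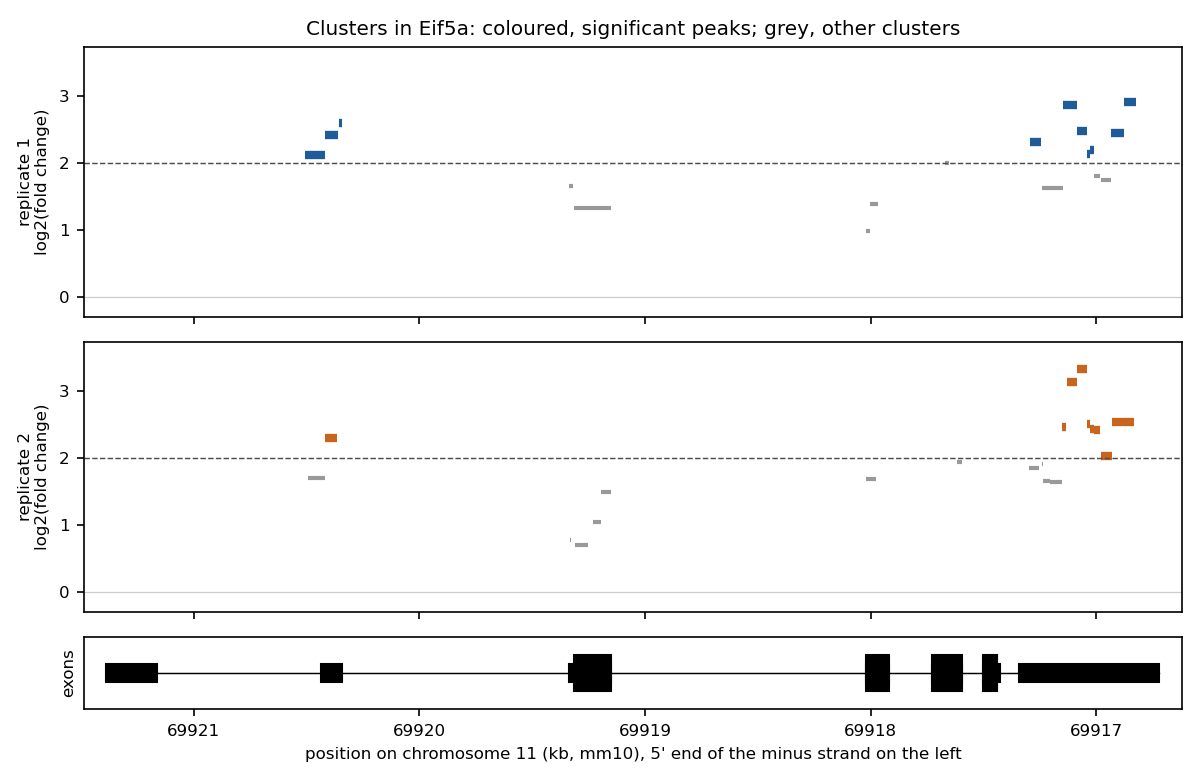
Clusters of Eif5a by position (horizontal axis, kb on chromosome 11, mm10, 5′ end on the left) and by the authors' log2(fold change) (vertical axis) in replicate 1 and replicate 2, with coloured bars for significant peaks, grey bars for other clusters, a dashed line at the threshold of 2, and the exons below (tall for CDS, low for UTR). Significant peaks of both replicates stand over the last exon, from 2.02 up to 3.32, and over a 5′UTR exon, from 2.11 to 2.59, and the clusters over CDS are grey.

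With both thresholds raised to 3, overlapping peaks remained in Eif4g2, Eif4e, Eif1ad and Eif5a2 alone of the 11 genes. Eif5a, Eif4g3 and Eif5 left the list although their sites held many reads or high ratios in one replicate. The order of the genes therefore depends on whether ratio or read number is asked for.

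The sequences of the strongest shared site of each gene except Eif4ebp3 are given to show the bases that both replicates marked, taken from GRCm38 (mm10) on the strand of the gene. Capitals mark bases inside significant peaks of both replicates. For CDS the whole site is shown (chr7:111074038-111074129, minus strand, for Eif4g2), and for 3′UTRs up to 30 bases around the centre of the overlap. The CDS site of Eif4g3 with most reads (chr4:138126000-138126123, plus strand) was added after its values were seen.
Eif4g2 CDS: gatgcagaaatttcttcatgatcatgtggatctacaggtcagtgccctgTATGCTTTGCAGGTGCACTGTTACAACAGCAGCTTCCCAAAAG
Eif4g3 3′UTR: AAACGTTTCACTTTAGGTTGGCACTGATAG
Eif4g3 CDS: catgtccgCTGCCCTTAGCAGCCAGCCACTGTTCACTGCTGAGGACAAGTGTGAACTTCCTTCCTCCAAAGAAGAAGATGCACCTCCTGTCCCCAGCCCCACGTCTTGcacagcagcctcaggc
Eif1ad 3′UTR: TCCTCGCTTGTTGGAAGGCTTTTGCTTCTG
Eif5a2 3′UTR: TGTAAATTGTGTCTAAAATTGTAGACATGG
Eif4e 3′UTR: TTTGCTGGTGTGAGAGTCTGAGTACAGCTT
Eif4ebp2 3′UTR: TGCTTTGTGCTTGGCTGCTGAGAGAGCAGC
Eif5a 3′UTR: GAAAGGGAGTTGGGTACTGCTTGTGGTTTA
Eif5 3′UTR: cttgctggTGTAAGCTCTATCTggggtcct
Eif4e2 3′UTR: CAGCTGTCTTATTGCTGTGTACTATCCAGA
Eif2ak1 3′UTR: agtcttcCCTGGTCCTTCTGTACTgctgcc
The GC content was 45.7% over the site of Eif4g2 and 58.1% over the CDS site of Eif4g3.

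As a simple description of base content, 2 short words were counted in windows of 101 bases around the 26 shared sites, a search added after the data were seen. GGAC was in 10 of the 26 windows (38.5%) and its reverse complement GTCC in 11 (42.3%), against 25.6% and 30.2% of 3728 windows at shared sites of all protein-coding genes. CACA was in 9 (34.6%) and TGTG in 14 (53.8%), against 38.1% and 46.6%. In each case the reverse complement was at least as frequent as the word itself, and the median GC content of the windows was 49.0% against 46.5%.

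Several initiation factor genes host small nucleolar RNAs in their introns, and their reads fall inside the same gene span. In all, 47 clusters in replicate 1 and 41 in replicate 2 had their centre in a second gene, and the only significant ones were the 2 of Eif4ebp3 in each replicate. In Eif4g2, a hosted small nucleolar RNA gave the clusters with most reads, up to 838 IP and 1028 input reads in replicate 1 and 1318 IP and 4150 input reads in replicate 2, with a log2(fold change) of at most 0.47 and 0.97. The high read numbers at these RNAs thus stood apart from the significant peaks of their hosts.

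Other genes of the initiation machinery and its control, without the Eif prefix, were taken from a list of 27, of which 26 were found by symbol and 25 had clusters in both replicates. Significant peaks lay in both replicates for 13 of the 25, where 39.1% of all protein-coding genes had them, and overlapped for 5, where 16.6% did. Of the 26 genes found, 8 had none in either replicate. The 5 with overlap were Pabpc1, Bzw1, Abce1, Pdcd4 and Paip1. Pabpc1, the poly(A)-binding protein that contacts eIF4G, had 12 significant peaks in replicate 1, beside 8 in replicate 2, with 10 and 8 in CDS. Bzw1, a mimic of eIF5, had a shared 3′UTR site at 3.22 in replicate 1 and 2.95 in replicate 2. Abce1, which recycles ribosomes, had one at 3.35 in replicate 1 from 18 IP reads, and at a lower 2.3 in replicate 2 from 15. Pdcd4, an inhibitor of eIF4A, had one at 2.23 and 3.39, and Paip1, a partner of Pabpc1, one at 2.76 and 2.09.

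The tissue of origin was visible in the reads. All 8 germ cell markers looked at had clusters in both replicates, and Prm1, a protamine of spermatids, had clusters of up to 445 IP reads in replicate 1 and 375 in replicate 2. All 4 markers of Sertoli cells and all 4 of Leydig cells had clusters too, led by Clu with up to 279 and 201 IP reads and Insl3 with up to 274 and 273. The libraries thus held RNA of germ cells and of somatic cells, and which of them gave the reads of an initiation factor gene was not tested.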

How the data were processed

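IGF2BP3 eCLIP-seq libraries of mouse testes, 1 IP and 1 input in each of 2 replicates, were analysed from the authors' deposited cluster tables. The authors trimmed reads with cutadapt, removed ribosomal RNA reads with Bowtie2, aligned the rest to mm10 with STAR and called clusters. The deposited values are the authors' log2(fold change) of IP over input and the authors' −log10(P value), from a test of the IP against the input reads of each cluster. No test of the gene list was made.

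A cluster was given to a gene when its centre lay in the span of the gene on the same strand (GENCODE M21). Regions came from basic transcripts, with 3′UTR before CDS, 5′UTR and intron. Library totals were recovered from the listed values: 5133438 IP and 8706391 input reads in replicate 1, 4637612 and 16696122 in replicate 2. With Yates' corrected chi-square test, and Fisher's exact test for observed or expected numbers under 5, a single pair of whole read numbers returned both values within a tolerance of 3e-05 for 301287 of 301288 clusters in replicate 1 and 199765 of 199766 in replicate 2. Clusters listed at 0 or 400 were outside this step. The procedure was tested on simulated data. Shares carry 95% Wilson intervals, which cover counting error only.

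The members and lists were chosen with earlier results of these data known. Named with values were the genes with overlapping significant peaks of both replicates, those with significant peaks in both without overlap, the 5 with most clusters and no significant peak, and sets of paralogs. The other genes are given by counts, and where a single gene was picked out further, this was after its values were seen. Alternatives covered the thresholds, adjusted P values, read number, the rule for the gene of a cluster, the order of regions, the overlap and each replicate alone. An IgG control, named in the series text, was not analysed here. Python 3.11.15, numpy 2.4.6, pandas 2.3.3, scipy 1.17.1, matplotlib 3.10.9 and samtools 1.23.1 were used.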

Additional observations from a re-analysis of the deposited data

How the results depend on the processing

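The number of initiation factor genes with a significant peak in both replicates (22) stayed within 1.5 times under most alternatives, and was 25 to 29 when a single replicate was used. The number with overlapping peaks (11) was the same when the overlap had to cover 50% of the shorter peak. Without replicate 1 or replicate 2 it has no value.

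With both thresholds at 3, the numbers were 8 and 4, the significant share of clusters was 1.96% in replicate 1 and 2.15% in replicate 2, the 3′UTR share of peaks was 59.3% and 77.3%, and the CDS share in replicate 2 was 9.09%. With the log2(fold change) threshold at 1, 19 genes had overlapping peaks, the significant shares were 14.2% and 21.2%, and the CDS shares 44.9% and 35.5%. With clusters given to the gene whose start site was nearest, on any strand, the numbers were 14 and 6, and the significant share in replicate 1 was 5.53%. With at least 10 recovered IP reads, which leaves out clusters listed at 0 or 400, among them an Eif5a peak of replicate 2, the significant shares were 19.5% and 18.4%, and in replicate 2 the 3′UTR share was 65.6% and the CDS share 28.1%, beside 59.9% and 30.9% over all protein-coding genes. In replicate 1, an adjusted P of at most 0.05 gave a significant share of 5.66%, and centres in exons gave 10%. Apart from the setting with at least 10 IP reads, the shares over all protein-coding genes are not given for these alternatives. The shifts therefore cannot be read as particular to the initiation factor genes, and their cause was not tested.

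For the named genes, 84 peak counts were compared in each setting. At thresholds of 3, 46 were lower and 22 fell to 0, and with the nearest start site 25 were lower, 16 higher and 18 fell to 0. With at least 10 IP reads 29 were lower and 10 fell to 0, so single peaks with few reads limit the genes that rest on them.

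No paired analysis was possible because the results are counts and shares of peaks called within each pair of IP and input, with no test across the pairs. The spread between the 2 biological replicates was not modelled. Depth limits genes with few clusters.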
